A study of Mus musculus with 12 samples.

Results

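The 32 genes described here carry out cholesterol synthesis, uptake, storage, transport and removal in mouse brain tissue measured by RNA-seq at 7 days after traumatic brain injury (TBI). They were chosen by symbol and matched to Ensembl identifiers among 35697 identifiers of one count table and 55637 of the other, and all 32 had counts in both tables and passed the filter on low counts. The synthesis arm holds 20 of them, 18 enzymes and the regulators Srebf2 and Insig1, and the uptake and efflux arm holds 12. All 12 mice were labelled wild type and were adult male C57BL/6J animals. TBI was a controlled cortical impact, in which a piston strikes the cortex, and sham surgery left out the impact. SH_WT (sham) and TBI_WT (injured, 7 days) were sequenced in a batch labelled 2018, with 3 mice each. TBI_7d (injured, 7 days) and Zi_7d (injured and given zileuton) were sequenced in a batch labelled 2022, again with 3 mice each. The drug zileuton inhibits 5-lipoxygenase, and 10 mg per kg was injected intraperitoneally each day with corn oil as solvent. The labels call TBI_7d only injured, whereas the study treats these mice as its vehicle group. The source labels of the Zi_7d mice name 7, 8 and 9 days, while their library names give 7 days. The 2018 libraries were compared with each other and the 2022 libraries with each other, since no condition is shared under one label and the tables were made differently.

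Cholesterol in the brain is made locally, because lipoproteins of the blood do not cross the blood-brain barrier. Acetyl-CoA is built into mevalonate, then into isoprenoid units, squalene, lanosterol and finally cholesterol, and the transcription factor SREBP2, encoded by Srebf2, drives most genes of this route when sterols in the endoplasmic reticulum are low. When cholesterol is abundant, oxysterols and sterol intermediates activate the liver X receptors (LXRs, encoded by Nr1h2 and Nr1h3), whose targets include the exporters Abca1 and Abcg1 and the carrier Apoe. Glial cells supply much of the cholesterol that neurons use, and phagocytes that take up myelin debris must store or export the cholesterol it holds.

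The 2018 libraries held between 42929862 and 48684674 counts and the 2022 libraries between 27845562 and 35453257. The injury labels were checked with Gfap, an astrocyte filament gene, at 188 ± 41.6 CPM (counts scaled to 1000000 per library, mean ± SD, n = 3) in SH_WT and 2484 ± 211 in TBI_WT, and with the phagocyte gene Cd68 at 7.90 ± 1.00 and 97.3 ± 29.1 CPM. The summed level of 12 microglia and macrophage markers went from 379 to 461 CPM in sham to 1808 to 2742 CPM in TBI_WT, and all 12 rose. The 7 markers of infiltrating monocytes and macrophages went from 12.3 to 14.8 to 593 to 1322 CPM, and all 7 rose. Summed neuron markers were 8174 to 8789 CPM in sham and 5311 to 6702 CPM in TBI_WT, with 4 of 10 lower and none higher. Of 8 astrocyte markers 6 rose, and of 10 markers of mature oligodendrocytes, the myelin-forming cells, 5 rose and none fell. Choroid plexus markers differed within and between groups, at 1060.0 CPM in sham library 1 against 27.5 and 63.6 in the other sham libraries and 1139 to 1361 CPM in TBI_WT, where 1 of 5 was called higher. In the 2022 batch they stood at 16.1 and 28.3 CPM in TBI_7d library 2 and Zi_7d library 6 against 476 to 1456 in the other 2022 libraries, and their part in the results below was not tested. In bulk tissue, fewer cells of a type and less RNA per cell cannot be told apart, and this holds for every value below.

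At 7 days after TBI the 2 arms moved in opposite directions. Of 20 synthesis genes 17 fell and none rose, with a median log2 fold change of -0.61, whereas of 12 uptake and efflux genes 9 rose and 1 fell, with a median of 0.95. The largest rises were those of the oxysterol-forming hydroxylase Ch25h at 12.4-fold, the cholesterol exporter Abca1 at 6.60-fold, and the lipid carrier Apoe at 5.37-fold. The sham counts of Ch25h were at most 13 per library. Among synthesis genes counted above 1 CPM, Idi1, which isomerises the first isoprenoid unit, fell most, to a level 2.22-fold lower. Over all 19536 genes tested, 28.0% were called in either direction at an adjusted p under 0.05, 16.8% higher and 11.2% lower, and the median log2 fold change was 0.02. All TBI libraries lay on one side of all sham libraries for 18 of 20 synthesis genes and 11 of 12 uptake and efflux genes, beside 44.4% of all genes tested. Calls are from edgeR's quasi-likelihood test with Benjamini-Hochberg adjustment over all genes tested, and each fold change below is given on the log2 scale with its standard error (SE).

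**Figure D1:**
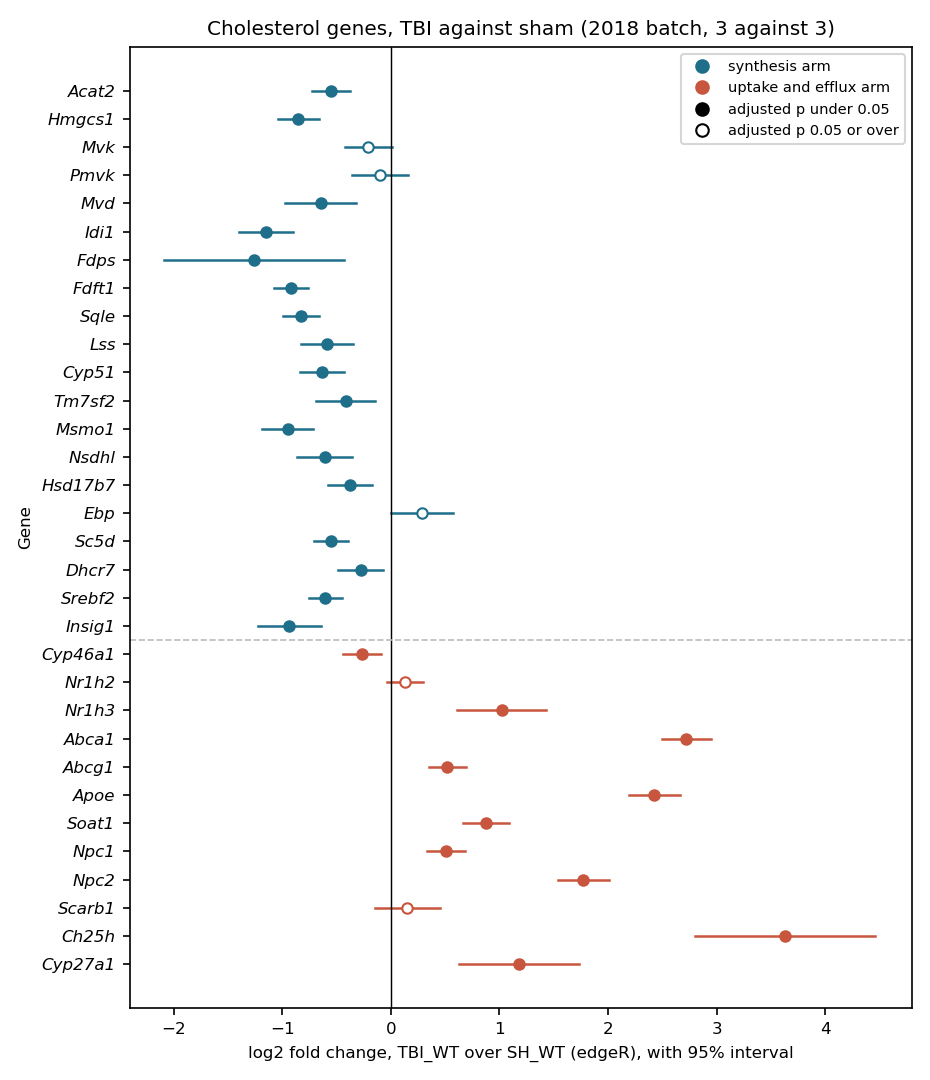
Log2 fold change of each of the 32 genes, TBI_WT over SH_WT, on the horizontal axis, with 95% intervals as lines. Filled points had an adjusted p under 0.05. The 17 filled synthesis points lie left of 0, and 9 of the 10 filled uptake and efflux points lie right of it.

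The first enzymes of the route lead from acetyl units to farnesyl diphosphate, and 5 of 7 fell. Acat2, a cytosolic thiolase that joins acetyl-CoA units, was counted at 38.2, 37.2 and 40.3 CPM in the 3 sham libraries and at 26.2, 26.8 and 26.0 CPM in the 3 TBI libraries. All TBI libraries lay below all sham libraries, a difference of -0.55 ± 0.08 (adjusted p = 0.001). The near-identical gene Acat3 could share reads with it and stood at 1.75 to 3.70 CPM in sham and 2.91 to 4.64 CPM in TBI_WT. Hmgcs1, the HMG-CoA synthase of the mevalonate route, had 218, 204 and 195 CPM in sham and 104, 120.1 and 118 CPM in TBI_WT. Its highest TBI library stood far below its lowest sham library, and the change was -0.85 ± 0.08 (adjusted p = 0.00014). Mvd, which decarboxylates mevalonate diphosphate, went from 20.5, 22.5 and 22.9 to 11.3, 16.8 and 14.0 CPM (-0.64 ± 0.14, adjusted p = 0.011). Relative to its mean, the spread within TBI_WT was wider for Mvd than for the other enzymes of this stretch, with library 2 nearest to the sham level. Idi1 was tight in both groups, at 22.7, 23.6 and 23.1 CPM in sham and 11.3, 10.8 and 9.22 CPM in TBI_WT, and fell by 1.15 ± 0.11 (adjusted p = 0.00012). The mevalonate kinase Mvk stood at 19.6 ± 1.18 CPM in sham and 17.0 ± 0.543 CPM in TBI_WT without overlap, yet did not pass (-0.21 ± 0.09, adjusted p = 0.14). The phosphomevalonate kinase Pmvk overlapped between groups, at 29.3 ± 3.87 and 27.3 ± 2.04 CPM (-0.10 ± 0.11, adjusted p = 0.56). These 2 consecutive kinases were the members of this stretch that were not called.

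Fdps, the farnesyl diphosphate synthase, carried the largest fitted fall, -1.26 ± 0.37 (adjusted p = 0.032), but on very few reads. Its counts were 36, 59 and 37 in sham and 22, 18 and 16 in TBI_WT, or 0.799, 1.28 and 0.779 and 0.447, 0.369 and 0.371 CPM. In the 2022 table the same gene stood at 30.4, 31.0 and 27.3 CPM in TBI_7d. A readthrough gene, Gm43738, overlaps Fdps in the GENCODE M21 annotation. It had 18.03 to 27.1 CPM in TBI_7d and has no entry among the 2018 identifiers. The 2018 value of Fdps is uncertain, and the reason for its low counts was not tested. Its call was also lost when any one of the 6 libraries was left out (adjusted p 0.053 to 0.11). Leaving Fdps out, 16 of 19 synthesis genes fell, with a median of -0.60.

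The next 4 enzymes convert farnesyl diphosphate to squalene and on to the first sterols, and all 4 fell. Fdft1, the squalene synthase that commits the route to sterols, had 111, 110.4 and 105 CPM in sham and 55.0, 58.4 and 59.3 CPM in TBI_WT. No library came near the range of the other group, and with -0.92 ± 0.07 (adjusted p = 3.3e-05) Fdft1 had the smallest adjusted p of the synthesis arm. Fdft1 overlaps the lysosomal protease gene Ctsb in GENCODE M21, which itself stood at 653 to 729 CPM in sham and 1737 to 2467 CPM in TBI_WT. Sqle, the squalene epoxidase that adds the first oxygen, went from 67.3, 73.9 and 68.8 to 38.7, 40.9 and 38.7 CPM (-0.83 ± 0.07, adjusted p = 8.4e-05). Lss, which folds the epoxide into lanosterol, had 35.0, 33.7 and 31.5 CPM in sham and 19.3, 23.4 and 24.1 CPM in TBI_WT (-0.59 ± 0.10, adjusted p = 0.0036). Cyp51, the lanosterol demethylase, was counted at 74.9, 76.4 and 75.5 CPM and 42.7, 51.4 and 52.1 CPM (-0.63 ± 0.09, adjusted p = 0.0011). For both Lss and Cyp51, TBI library 1 was the lowest of all 6 libraries.

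The 7 members that work after Cyp51 on the way to cholesterol were less uniform, with 6 lower and 1 not called. Msmo1, which starts a later demethylation of the sterol ring than that of Cyp51, fell most among them. It went from 88.3, 104 and 97.2 to 44.1, 55.7 and 50.1 CPM (-0.95 ± 0.10, adjusted p = 0.00024). Nsdhl, the next enzyme of the same demethylation, went from 23.4, 22.9 and 24.3 to 17.6, 14.0 and 14.6 CPM (-0.61 ± 0.11, adjusted p = 0.0039). Hsd17b7, the ketoreductase that follows it, fell less, from 30.4, 27.4 and 28.1 to 23.6, 20.9 and 21.5 CPM (-0.38 ± 0.09, adjusted p = 0.014). These 3 enzymes of one demethylation cycle thus covered changes from -0.95 to -0.38. Sc5d, a sterol desaturase, had 83.8, 91.4 and 82.4 CPM in sham and a narrow 58.9, 58.2 and 58.9 CPM in TBI_WT (-0.55 ± 0.07, adjusted p = 0.00062). Tm7sf2, a sterol reductase, went from 14.4, 18.2 and 15.97 to 12.7, 11.4 and 12.3 CPM (-0.42 ± 0.12, adjusted p = 0.031). Dhcr7, which catalyses the last step to cholesterol in one branch of the route, changed least of the called enzymes, from 27.7, 32.4 and 31.3 to 24.3, 26.1 and 25.0 CPM (-0.28 ± 0.09, adjusted p = 0.048). Both Tm7sf2 and Dhcr7 separated the groups completely but lay close to the threshold, and both calls were lost when any one library other than sham library 1 was left out (adjusted p up to 0.082 for Tm7sf2 and 0.12 for Dhcr7). Ebp, the sterol isomerase, was the one synthesis gene with a positive value, at 15.96 ± 1.59 CPM in sham and 19.5 ± 2.56 CPM in TBI_WT, with overlapping groups (0.28 ± 0.13, 95% interval -0.00 to 0.57, adjusted p = 0.13).

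Both regulators of the arm fell as well. Srebf2 was the most highly counted synthesis gene, at 249, 237 and 250.1 CPM in sham and 161, 167 and 156 CPM in TBI_WT, a change of -0.60 ± 0.07 (adjusted p = 0.00029). Insig1, which retains the SREBP escort protein in the endoplasmic reticulum and is itself a target of SREBP2, had 82.3, 77.8 and 92.8 CPM in sham and 40.5, 53.2 and 38.6 CPM in TBI_WT (-0.93 ± 0.13, adjusted p = 0.00096). The TBI libraries of Insig1 spread more widely than those of Srebf2, and in neither gene did they reach the sham range. Per gene length, Hmgcs1 was the highest synthesis gene in sham at 43.9 ± 2.26 FPKM, followed by Srebf2 at 33.5 ± 0.913, Insig1 at 26.8 ± 2.49 and Fdft1 at 26.0 ± 0.668 FPKM. The level of Insig1 and that of Fdft1 did not differ beyond their spread. Summed over the 20 genes, synthesis transcripts took 1247 to 1265 CPM in the sham libraries and 753 to 818 CPM in the TBI libraries.

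Other genes of synthesis and its control, which are not among the 32, were counted alongside. Of 12, 3 fell and 1 rose, that is 33.3% called beside 28.0% of all genes tested. The falls were those of the cholesterol shuttle Stard4, from 40.9 ± 2.03 to 19.1 ± 2.35 CPM (-1.10 ± 0.11, adjusted p = 0.00014), the membrane protein Tmem97, a binding partner of Npc1 (-0.53 ± 0.13, adjusted p = 0.014), and Ggps1, which makes geranylgeranyl diphosphate (-0.29 ± 0.08, adjusted p = 0.023). The one rise was that of Srebf1, the SREBP gene of fatty acid synthesis and an LXR target, from 44.2 ± 2.49 to 106 ± 18.3 CPM (1.26 ± 0.12, adjusted p = 0.00015). The 2 SREBP genes therefore had changes of opposite sign in the same libraries. Under processing alternatives the adjusted p reached 0.061 for Tmem97 and 0.073 for Ggps1, while the calls of Stard4 and Srebf1 held in all that gave a value.

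Promoter sequences show a feature that the choice of genes did not use. RefSeq promoters on GRCm38.p6, each 250 bases before to 50 bases after a start site, were matched by symbol for 26 of the 32 genes, 17 in the synthesis arm and 9 in the uptake and efflux arm. The box CCAAT, bound by NF-Y, a factor known to act with SREBPs, was found on either strand in 16 of 17 synthesis genes and in 4 of 9 uptake and efflux genes, beside 41.1% of all 27025 genes with a promoter in the same table. Acat2, which fell, was the synthesis gene without it. Mvk, Pmvk and Ebp, which were not called, hold it. So do Soat1, Npc2 and Cyp27a1, which rose, and Cyp46a1, which fell. The core of the sterol regulatory element, TCACNCCAC on either strand, was found in 1 member, Hmgcs1, and in 1.44% of all genes. The LXR element, searched as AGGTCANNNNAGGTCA and in the relaxed form AGGTNANNNNNGGTCA on both strands, had no exact match in any member. Exact matches were in 0.0148% and 0.0962% of all genes. Variants were not counted or marked. In the Abca1 sequence below, the reverse complement of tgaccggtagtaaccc differs from the relaxed form at its first base alone. The motifs do not overlap in the sequences shown. The promoters of Hmgcs1 (chr13:119690101-119690350, plus strand), Idi1 (chr13:8885356-8885605, plus strand) and Msmo1 (chr8:64733579-64733828, minus strand) are shown because these genes fell strongly and hold several boxes, and that of Abca1 (chr4:53159896-53160145, minus strand) because it rose strongly and holds none. Hmgcs1 was printed by rule, and the other promoters were chosen after the values were seen. Each line gives the 250 bases before the start site, 5′ to 3′ along the gene, with CCAAT or its reverse complement ATTGG and the sterol element in capitals.
Hmgcs1: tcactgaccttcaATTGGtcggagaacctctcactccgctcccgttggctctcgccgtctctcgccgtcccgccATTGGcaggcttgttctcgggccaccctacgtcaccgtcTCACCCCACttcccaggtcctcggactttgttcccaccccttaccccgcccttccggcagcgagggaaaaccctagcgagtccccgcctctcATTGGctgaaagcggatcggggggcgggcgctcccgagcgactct
Idi1: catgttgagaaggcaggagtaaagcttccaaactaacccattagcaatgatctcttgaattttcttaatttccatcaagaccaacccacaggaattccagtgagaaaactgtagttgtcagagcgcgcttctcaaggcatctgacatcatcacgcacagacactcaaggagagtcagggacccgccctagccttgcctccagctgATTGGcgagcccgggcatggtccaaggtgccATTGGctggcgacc
Msmo1: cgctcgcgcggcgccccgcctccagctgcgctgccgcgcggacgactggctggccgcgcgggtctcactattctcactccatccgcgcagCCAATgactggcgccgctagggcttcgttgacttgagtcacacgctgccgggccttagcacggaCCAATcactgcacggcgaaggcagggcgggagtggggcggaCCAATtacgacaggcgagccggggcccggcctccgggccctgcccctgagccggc
Abca1: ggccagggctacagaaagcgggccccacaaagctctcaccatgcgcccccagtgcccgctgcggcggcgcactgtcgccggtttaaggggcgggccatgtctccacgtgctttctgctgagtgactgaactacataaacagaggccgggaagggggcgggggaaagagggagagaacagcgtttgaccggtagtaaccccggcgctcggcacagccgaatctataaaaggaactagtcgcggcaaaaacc
Hmgcs1 holds 3 boxes in this stretch and the sterol element between the second and the third of them, Idi1 holds 2 and Msmo1 holds 3. A match is a description of letters, and binding was not measured.

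**Figure D2:**
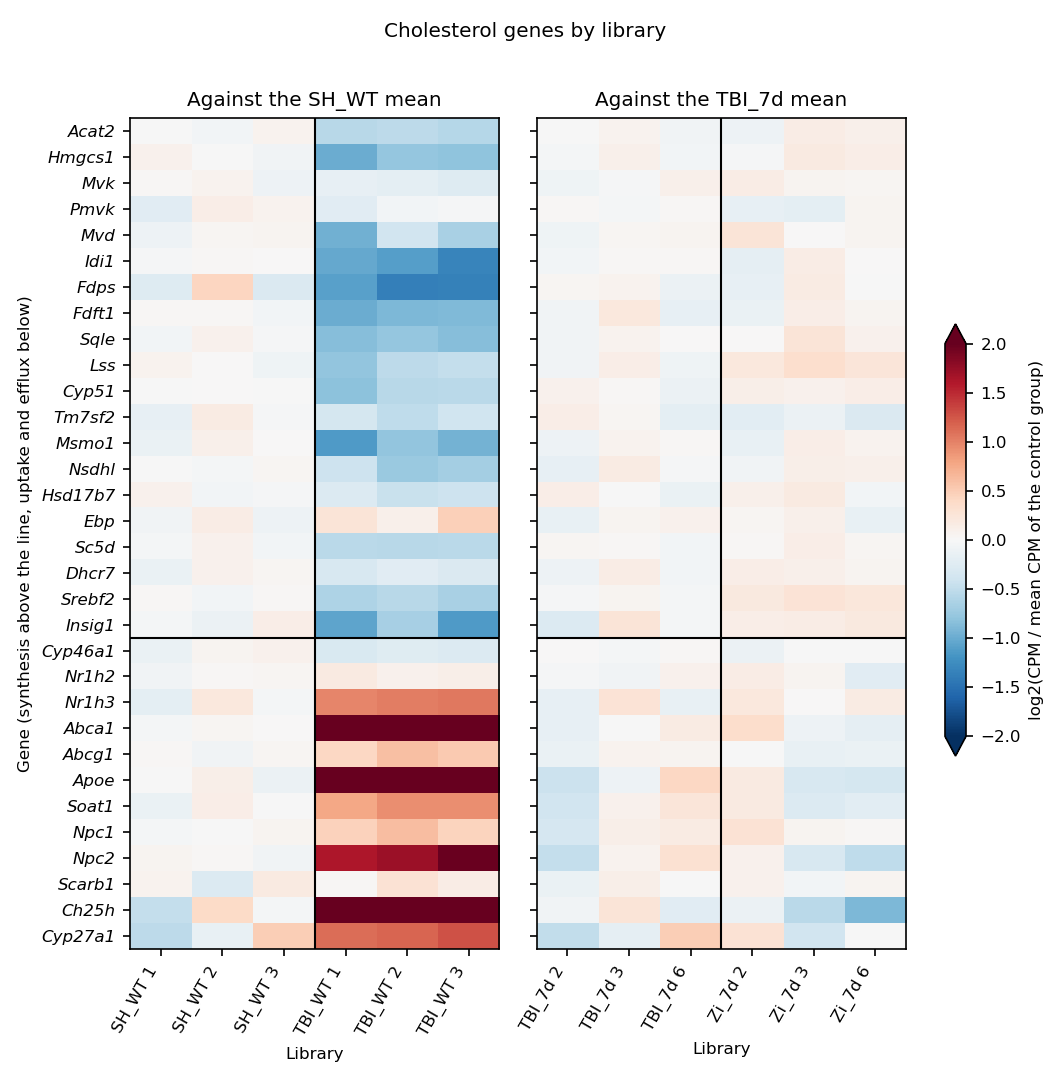
Each cell is one library, with colour giving log2 of its CPM over the mean CPM of the control group of the same batch, SH_WT on the left and TBI_7d on the right. Colours saturate at 2 and -2. In the 2018 batch the 3 TBI columns are blue over most synthesis genes and red over most uptake and efflux genes, while the right panel is pale for nearly all genes.

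In the uptake and efflux arm the LXR targets that carry and export cholesterol all rose. Apoe, the main lipid carrier of the brain, was counted at 1569, 1705 and 1455 CPM in sham and at 7833, 8412 and 9176 CPM in TBI_WT. The lowest TBI library stood far above the highest sham library, and the change was 2.43 ± 0.10 (adjusted p = 3.5e-06). Abca1, which loads cholesterol onto apolipoproteins at the cell surface, went from 37.4, 39.8 and 38.6 to 220.3, 279 and 265 CPM (2.72 ± 0.10, adjusted p = 2.5e-06), the smallest adjusted p of all 32 genes. Abcg1, the partner exporter to mature lipoproteins, rose far less, from 71.7, 67.5 and 72.8 to 94.6, 108 and 101 CPM (0.52 ± 0.08, adjusted p = 0.0012). Of the receptors themselves, Nr1h3 (LXR alpha) rose 2.03-fold from a low base, from 2.35, 3.11 and 2.63 to 5.32, 5.50 and 5.62 CPM (1.02 ± 0.18, adjusted p = 0.0034). Nr1h2 (LXR beta), the more abundant receptor per length in these libraries, had 44.7, 47.7 and 47.9 CPM in sham and 53.2, 49.7 and 50.9 CPM in TBI_WT and did not pass (0.13 ± 0.07, 95% interval -0.03 to 0.30, adjusted p = 0.21). The groups did not overlap for Nr1h2.

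Lysosomal and surface uptake genes were mixed. Npc2, the soluble lysosomal protein that hands cholesterol to Npc1, was at 69.0, 67.7 and 63.5 CPM in sham and 204, 217 and 263 CPM in TBI_WT (1.77 ± 0.10, adjusted p = 1.3e-05). Its membrane partner Npc1 rose from 47.5, 48.4 and 50.5 to 66.9, 75.0 and 66.4 CPM (0.51 ± 0.08, adjusted p = 0.0016). The 95% intervals of these partners, 1.54 to 2.01 for Npc2 and 0.33 to 0.68 for Npc1, do not touch. Scarb1, a surface receptor for high-density lipoprotein, overlapped between groups at 19.1 ± 3.01 and 21.3 ± 1.97 CPM (0.15 ± 0.13, adjusted p = 0.44). Soat1, which esterifies cholesterol for storage in lipid droplets, rose from 27.2, 32.9 and 29.6 to 51.0, 56.7 and 57.0 CPM (0.88 ± 0.09, adjusted p = 0.00023).

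The 3 hydroxylases that turn cholesterol into oxysterols did not move together. Ch25h had counts of 7, 13 and 10 in sham and 117, 176 and 91 in TBI_WT, or 0.155, 0.281 and 0.210 and 2.38, 3.61 and 2.11 CPM, and rose by 3.63 ± 0.36 (adjusted p = 0.00016). With at most 13 counts per sham library, the size of this rise is known only within a 95% interval of 2.80 to 4.46. Cyp27a1, a mitochondrial sterol hydroxylase, went from 2.62, 3.39 and 5.26 to 8.19, 8.41 and 9.05 CPM (1.18 ± 0.24, adjusted p = 0.0073), with the sham libraries spread over a range wider than that of the TBI libraries. Cyp46a1, the neuronal hydroxylase through which the brain clears most of its cholesterol, was the one member of the arm that fell, from 184, 209.7 and 215 to 165, 172 and 169 CPM (-0.27 ± 0.08, adjusted p = 0.033). Its lowest sham library, 1, was the library with high choroid plexus markers, and the call was lost without sham library 2 or 3 or TBI library 1 or 3 (adjusted p up to 0.095). The neuron markers given above were lower in the same TBI libraries, and their part in the fall of Cyp46a1 was not tested. Per length, Apoe led the arm in sham at 724 ± 57.8 FPKM, far above Cyp46a1 at 60.6 ± 5.14 and Nr1h2 at 13.7 ± 0.604 FPKM. The summed level of the other 11 genes without Apoe was 507 to 547 CPM in sham and 890.2 to 1010.3 CPM in TBI_WT.

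**Figure D3:**
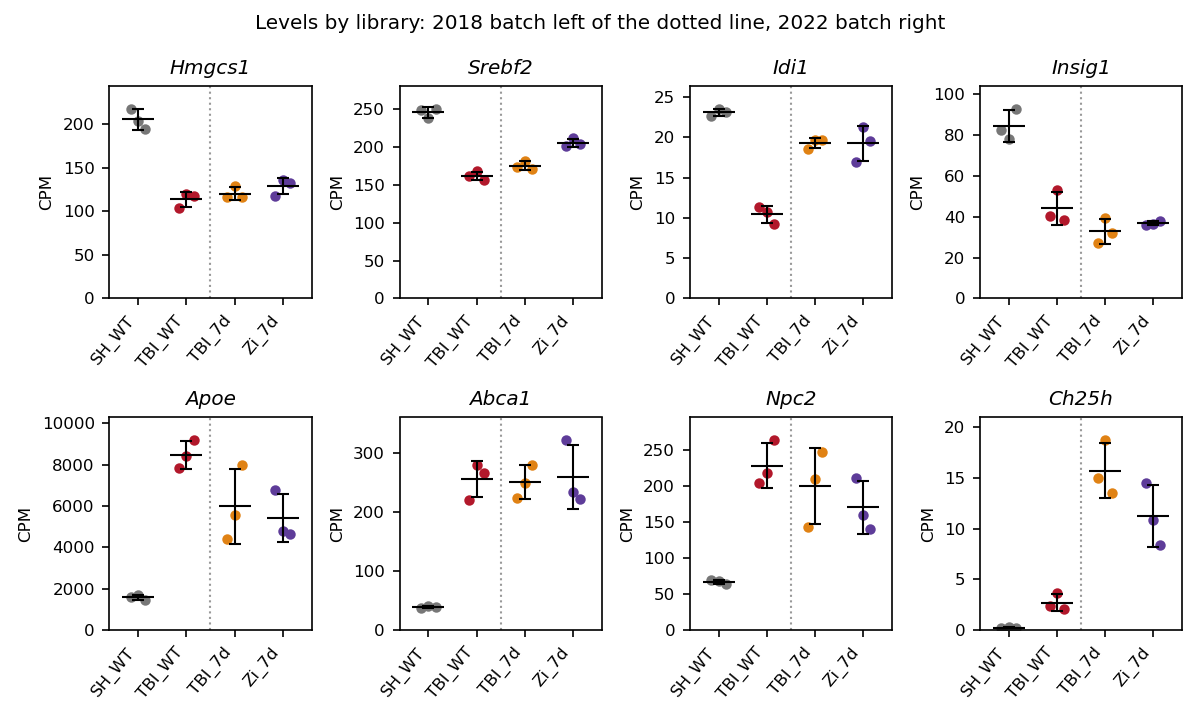
CPM per library (points) with mean and SD (black) for 4 synthesis genes above and 4 uptake and efflux genes below, all axes from 0. In the 2018 batch sham and TBI_WT separate completely in all 8 panels, and in the 2022 batch only the points of Srebf2 separate.

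Among 31 other genes of uptake, storage, transport and removal, 18 rose and 3 fell. These calls make 67.7%, beside 28.0% of all genes tested, of which 16.8% were called higher and 11.2% lower. The largest rises were those of the scavenger receptor Msr1, from 0.317 ± 0.0329 to 14.9 ± 7.98 CPM (5.54 ± 0.42, adjusted p = 3.9e-05), the apolipoprotein Apoc1, from 0.302 ± 0.158 to 11.3 ± 0.885 CPM (5.21 ± 0.33, adjusted p = 1.7e-05), and the lipid droplet coat protein Plin2, from 6.01 ± 0.635 to 78.8 ± 40.1 CPM (3.71 ± 0.33, adjusted p = 8.4e-05). The 3 falls were small and belonged to the sterol transporter Gramd1b (-0.28), the cholesteryl ester hydrolase Nceh1 (-0.27) and the oxysterol-binding protein Osbp (-0.25). Their adjusted p-values ran from 0.032 to 0.04 and reached 0.11 (Gramd1b and Nceh1) and 0.12 (Osbp) under processing alternatives. Those of Msr1 and Plin2 reached 0.103, while the call of Apoc1 held in all that gave a value.

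Several of the genes that rose are abundant in phagocytes, and the phagocyte markers rose in the same libraries. Astrocyte markers rose there too, from a sum of 4605 to 5219 CPM in sham to 8312 to 8585 CPM in TBI_WT, with 6 of 8 called higher. Across the 6 libraries of the 2018 batch, Apoe ranked the libraries in the same order as the summed microglia and macrophage markers, from sham library 3 with the lowest value of both to TBI library 3 with the highest. The same full agreement in order was seen for Apoe over the 6 libraries of the 2022 batch, and for no other member in either batch. In the 2018 batch members that fell could not share an order with markers that rose, so most synthesis genes could not agree. Soat1 and Npc2 came close, with 2 of 6 libraries out of order in each batch. The same held for Nr1h3 in the 2018 batch and Npc1 in the 2022 batch. The order was compared with this marker list alone. The likeness of Apoe was noticed after the values were seen, and the measures share their libraries. The part of cell numbers in the rise of Apoe was not tested. Among the markers of other brain cells, those of neurons were lower beside the synthesis genes, with all 10 values below 0 and 4 called, while none of 10 oligodendrocyte and none of 8 astrocyte markers was called lower. Red blood cell markers were lower too, at 151 to 244 CPM in sham and 89.3 to 141 CPM in TBI_WT. All 5 of their values were below 0, and 3 were called. The part of cell makeup in the fall of the synthesis genes was not tested.

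**Figure D4:**
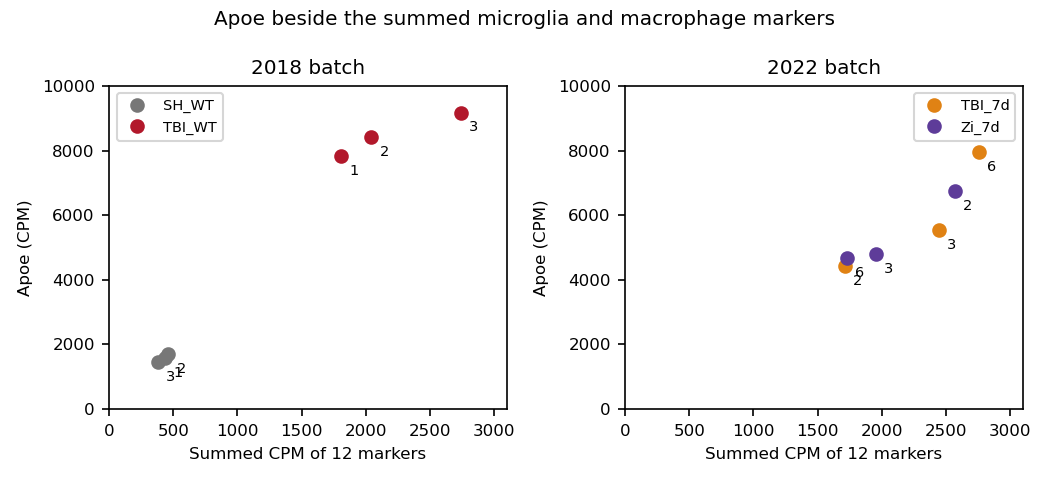
Apoe in CPM against the summed CPM of 12 microglia and macrophage markers, one point per library with its number, 2018 batch left and 2022 batch right. Within each batch the order of the libraries is the same on both axes.

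The second comparison asked what zileuton changed in injured mice. No member of either arm was called at an adjusted p under 0.05, nor was any of the 17363 genes tested (0%), and the smallest adjusted p among the 32 genes was 0.71. DESeq2 and limma also called none of the 32. At an unadjusted p under 0.05 edgeR found 2 synthesis genes higher and 1 uptake and efflux gene lower, that is 3 of 32 beside 6.83% of all genes tested. The groups did not overlap for 3 of 32 genes, all in the synthesis arm and all higher with zileuton (Srebf2, Lss and Cyp51), beside 13.6% of all genes. The median log2 fold change was 0.07 for synthesis, with 16 of 20 values above 0, and -0.02 for uptake and efflux, with 4 of 12 above 0. Over all 17363 genes tested the median was 0.0025, with 8799 values above 0. The genes of an arm share their libraries, so their signs are not separate observations.

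Srebf2 had the smallest unadjusted p of the 32 genes. It was counted at 173, 182 and 170.2 CPM in the 3 TBI_7d libraries and at 201, 211 and 204 CPM in the 3 Zi_7d libraries. All zileuton libraries lay above all controls, with a difference of 0.23 ± 0.07 (unadjusted p = 0.0089, adjusted p = 0.71). Lss had 25.2, 28.9 and 24.7 CPM in TBI_7d and 30.5, 33.1 and 31.0 CPM in Zi_7d (0.26 ± 0.09, unadjusted p = 0.023, adjusted p = 0.71). The values of Hmgcs1, 117, 128 and 116 CPM in TBI_7d and 118, 136 and 132 CPM in Zi_7d, overlapped (0.10 ± 0.08, adjusted p = 0.79). Those of Insig1 overlapped as well, at 27.2, 39.3 and 32.1 CPM and 36.1, 36.6 and 37.7 CPM (0.16 ± 0.13, adjusted p = 0.78), and the Zi_7d libraries were far closer to each other than the TBI_7d libraries. The other 16 synthesis genes had log2 fold changes between -0.21 (Tm7sf2) and 0.12 (Sqle). Over the whole arm the 95% intervals reached from -0.51 to 0.48.

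All 12 uptake and efflux genes overlapped between TBI_7d and Zi_7d. Ch25h was at 15.0, 18.7 and 13.5 CPM in TBI_7d and 14.5, 10.9 and 8.44 CPM in Zi_7d (-0.48 ± 0.21, unadjusted p = 0.047, adjusted p = 0.71). Zi_7d library 2 lay within the control range, and the other zileuton libraries lay below it. Apoe had 4413, 5551 and 7963 CPM in TBI_7d and 6754, 4806 and 4661 CPM in Zi_7d (-0.14 ± 0.23, 95% interval -0.68 to 0.39, adjusted p = 0.89). The control libraries alone spanned the whole range of the zileuton libraries, and the sign of the Apoe difference turned when TBI_7d library 6 was left out. Abca1 stood at 223, 249 and 279.6 CPM and 321, 233 and 222 CPM (0.05 ± 0.15, adjusted p = 0.95), with Zi_7d library 2 the highest of the 6. The levels of Npc2 were 143, 209 and 247 CPM and 211, 159 and 140.5 CPM (-0.23 ± 0.21, adjusted p = 0.81). Cyp46a1, at 221, 213 and 222 CPM in TBI_7d and 202, 216 and 218 CPM in Zi_7d, and Nr1h2, at 48.5, 46.6 and 52.2 CPM and 54.3, 51.1 and 41.8 CPM, overlapped too. Microglia and macrophage markers summed to 1712 to 2761 CPM in TBI_7d and 1728 to 2572 CPM in Zi_7d, none of the 12 called. Those of infiltrating monocytes and macrophages summed to 426 to 1285 CPM in TBI_7d and 424 to 878 CPM in Zi_7d, with all 7 values below 0 (median -0.69), 2 at an unadjusted p under 0.05 and none called. All 5 red blood cell markers were also below 0 (median -0.52), 4 at an unadjusted p under 0.05 and none called. Mature oligodendrocyte markers summed to 4515 to 9936 CPM in TBI_7d and 9067 to 9422 CPM in Zi_7d. All 10 of their values were above 0 (median 0.27), with none at an unadjusted p under 0.05. The part of these cell types in the values of Ch25h and the other members of both arms was not tested. The 95% intervals of the uptake and efflux arm ran from -0.96 (Ch25h) to 0.63 (Cyp27a1), wider than those of the synthesis arm. Of the other pathway genes none was called. At an unadjusted p under 0.05 were 1 of 12 in synthesis and its control. In uptake, storage, transport and removal 4 of 30 tested were, beside 6.83% of all genes tested.

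**Figure D5:**
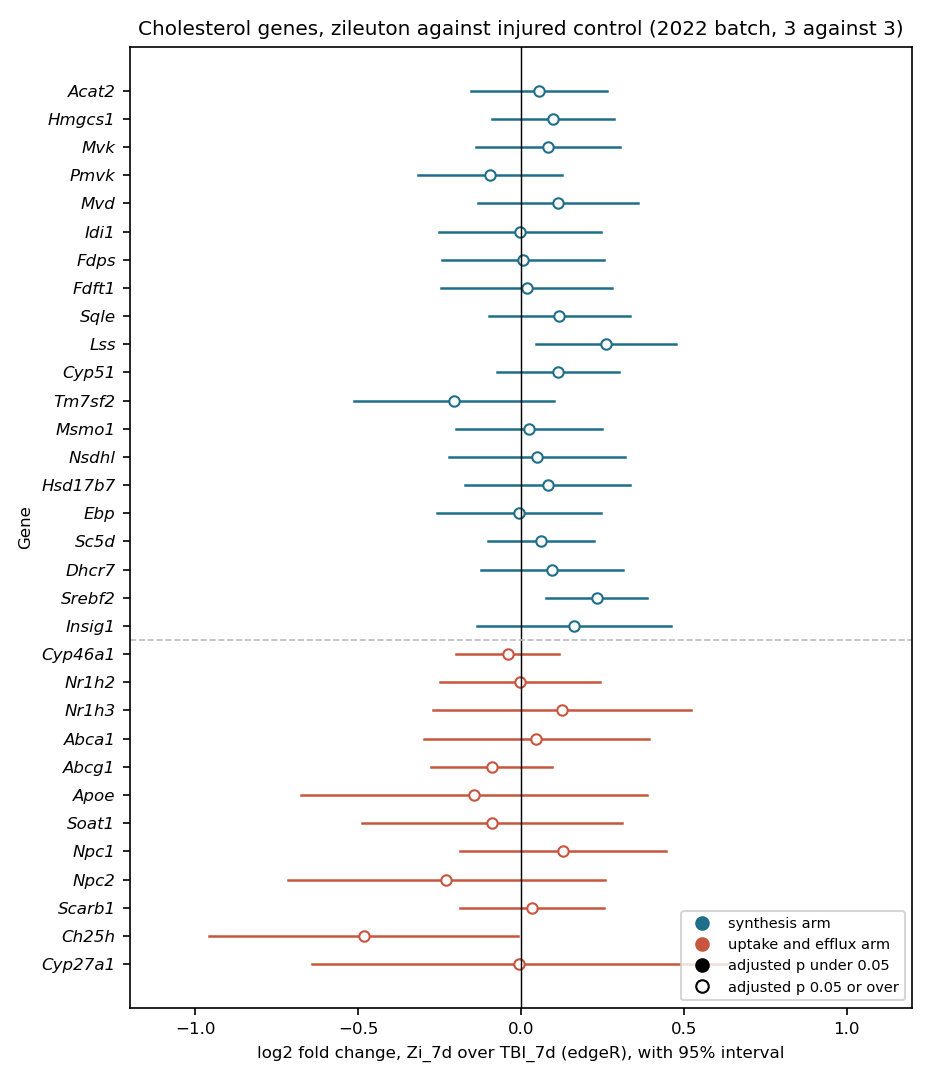
Log2 fold change of each of the 32 genes, Zi_7d over TBI_7d, with 95% intervals as lines. All points are open, since no adjusted p was under 0.05, and the intervals of Srebf2, Lss and Ch25h alone leave out 0.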

How the data were processed

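Brain RNA of 12 mice was sequenced from poly(A) libraries in paired reads. The values of 2018 are whole counts per gene, deposited by the authors together with FPKM. The values of 2022 are estimated counts, deposited by the authors together with TPM. Of the estimated counts 13.7% were not whole, and they were rounded here. The submitters' processing notes name HISAT2, Subread, featureCounts, DESeq2 and GRCm39 without saying which table each served, and whether counting used the strand is not given in the sources used here. The 2022 columns are numbered 2, 3 and 6, which the labels do not tie to single samples, so those libraries are named by column number within their group.

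Counts were tested in R 4.3.3 with edgeR 4.0.16 (filterByExpr, TMM factors, glmQLFit and glmQLFTest), each batch alone, with Benjamini-Hochberg adjustment over all genes tested and a threshold of 0.05. The plan had assumed raw counts in both batches. CPM are counts per 1000000 of the TMM-scaled library, and each SE is the log2 fold change over the square root of the F statistic. The biological coefficients of variation were 0.174 (2018) and 0.149 (2022). The fit was tested on simulated counts. Gene symbols were found for 34808 and 52081 identifiers. Overlapping genes were looked up in GENCODE M21 on GRCm38.p6, which differs from GRCm39, so gene positions are not printed and promoters carry RefSeq coordinates on GRCm38.p6. The members, arms, other pathway genes and 12 marker lists were chosen with earlier results of these data known. Values in every library are given for members called in a comparison and for the 3 members of each arm with the highest sham FPKM. For zileuton, where none was called, Lss, Ch25h, Abca1 and Npc2 were chosen after the values were seen from the members called after TBI. Other pathway genes are the 3 called with the largest change in each direction, and Acat3, Gm43738 and Ctsb were added after the values were seen. Of the other genes of synthesis and its control, 3 that the plan listed are not reported here. Alternatives were scaling by DESeq2 size factors or by library totals, the DESeq2 1.42.0 Wald test, a filter of 1 count in all or of 10 counts per library, robust dispersions, limma 3.58.1 on log2 of FPKM or TPM with 1 or 0.1 added (mean of at least 0.5, and with 1 also unfiltered), the two-sided equal-variance test that the study names, a length trend removed, a replicate block, and leaving out each library. Figures were drawn with matplotlib 3.10.9.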

Additional observations from a re-analysis of the deposited data

How the results depend on the processing

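For TBI_WT against SH_WT no member changed sign under any of 12 processing alternatives or any of 6 left-out libraries, and 13 of the 17 synthesis calls and 9 of the 10 uptake and efflux calls held in all that gave a value. The calls of Mvd, Fdps, Tm7sf2, Dhcr7 and Cyp46a1 did not hold in all, and Mvk was gained with the length trend removed (adjusted p = 0.0496). Cyp46a1, the one uptake and efflux gene called lower, was not called (0) with library totals alone, the 3 limma fits and the equal-variance test. The synthesis median moved beyond the spread between libraries with library totals alone (-0.55), limma with 1 added (-0.49), with 0.1 added (-0.55) and unfiltered (-0.48), the equal-variance test (-0.55) and the length trend removed (-0.66). The uptake and efflux median was 0.88 with at least 10 counts in every library, which leaves out Ch25h, and 0.70 in both limma fits with 1 added, where the added value itself shrinks low genes. With single libraries left out, synthesis calls numbered 14 to 16, uptake and efflux calls 9 higher and 0 to 1 lower, and the medians were -0.65 to -0.55 and 0.86 to 1.01.

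For Zi_7d against TBI_7d no alternative called a member. Genes at an unadjusted p under 0.05 numbered 4 in synthesis with unfiltered limma, 5 with the equal-variance test and 1 with the length trend removed, beside 2 in the reported fit. In uptake and efflux they numbered 0, beside 1, with DESeq2 size factors, library totals alone, at least 10 counts in every library, the 3 limma fits, the equal-variance test and the length trend removed. With single libraries left out they numbered 1 to 3 in synthesis, with 1 without TBI_7d library 2, TBI_7d library 6 or Zi_7d library 3, and 0 to 1 in uptake and efflux. The difference of Apoe turned to 0.00 (0.0037) and that of Abca1 to -0.14 with the length trend removed. With single libraries left out, Apoe ranged from -0.34 to 0.12 and Abca1 from -0.14 to 0.15. The cause of these shifts was not tested.

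The numbers of the libraries were not taken to pair the mice in the reported fit. The deviations of same-numbered libraries from their group means correlated at -0.083 to -0.018 in the 2018 batch and at -0.26 to 0.079 in the 2022 batch. With 3 libraries per group, these values cannot tell whether same-numbered mice were paired. With the replicate block 14 synthesis genes were called lower and 9 uptake and efflux genes higher, and Cyp46a1 was not called, leaving 0 lower.

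Low counts limit Fdps and Ch25h in the 2018 batch, where sham counts were at most 59 and 13 per library.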
